A study of Caenorhabditis elegans with 2 samples.

Results

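Binding of tagged UNC-42 was mapped at 7 genes of the epithelial junction of Caenorhabditis elegans, zoo-1, dlg-1, ajm-1, let-413, hmp-1, hmp-2 and jac-1, of 19973 protein-coding genes. UNC-42, a paired-like homeodomain protein, is best known as a regulator that specifies several classes of neurons. The members were named as a list, with the peak at zoo-1 already known to be the strongest of the experiment, so their counts, signals and ranks are given as a description with no test. A summit, the position of highest enrichment in a peak, was assigned to a gene when it lay in the gene body or up to 5000 bp upstream of its 5′ end. The authors' optimal set was thresholded with the irreproducible discovery rate (IDR), which measures how well peak ranks repeat between replicates. Its 4780 peaks were those of highest signal in the list of the pooled replicates, so a single peak need not have a match in both replicates. The set had 8 summits at 4 of the 7 genes. Over all protein-coding genes 27.8% had such a summit. The first 4780 entries of 1 replicate were also taken in place of the optimal set. Replicate 1 alone then gave 5 summits at 4 of the 7 genes, and replicate 2 alone gave 8 summits at 4.

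The animals were hermaphrodites of strain OP173, a stable line with UNC-42 fused at its C terminus to GFP and FLAG, and were collected as late embryos 3 hours after synchronisation by egg bleaching. Chromatin was recovered with an antibody against GFP, per the description in the labels, whose antibody entry reads unc-42, from whole animals in 2 biological replicates of 1 group, so a peak cannot be assigned to a cell type. There was no second condition, and neither an untagged strain nor another tagged factor was analysed here. The regulatory sequence that drives the tagged protein is not given in the sources used here. The relaxed lists made as input for IDR, which hold background regions as well as peaks, had 22676 entries in replicate 1, 20932 in replicate 2 and 23778 for the pooled replicates. Read depth is unknown, so no error can be given for a single peak.

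Epithelial cells of C. elegans are held together by an apical junction with a cadherin-catenin complex and, just below it, a complex of DLG-1 and AJM-1. In the first, the cadherin HMR-1 is bound by the β-catenin HMP-2 and the p120-catenin JAC-1, and the α-catenin HMP-1 links the complex to actin. ZOO-1, the zonula occludens protein of the worm, is recruited to the cadherin-catenin complex and takes part in the elongation of the embryo. DLG-1 is a membrane-associated guanylate kinase scaffold, AJM-1 a coiled-coil junction protein, and LET-413 the basolateral Scribble homologue that positions the junction.

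The sequences under the 3 summits of hmp-1 and the distal summit of let-413 are shown first, so that a strong summit can be read beside weaker ones of the same gene at hmp-1. Each run covers 101 bases of the RefSeq sequence of WBcel235 (ce11) centred on the summit, read 5′ to 3′ in the direction of the gene, and capitals mark TAAT or its reverse complement ATTA, the core bound by many homeodomains. The strong upstream summit of hmp-1 was centred in chrV:11844870-11844970 on the plus strand, the weaker upstream summit in chrV:11845072-11845172, and the intronic one in chrV:11851488-11851588. The distal summit of let-413 was centred in chrV:7980724-7980824, on the minus strand. Sequence is given for these 4 of the 8 summits, and those of zoo-1 and hmp-2 and the let-413 summit at the start of the gene, whose window holds UTR sequence, are not printed.
hmp-1 upstream, strong: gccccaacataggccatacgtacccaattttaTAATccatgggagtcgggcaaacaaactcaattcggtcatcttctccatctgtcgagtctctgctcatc
hmp-1 upstream, weaker: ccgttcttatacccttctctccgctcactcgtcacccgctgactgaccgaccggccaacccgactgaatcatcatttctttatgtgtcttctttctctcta
hmp-1 intronic: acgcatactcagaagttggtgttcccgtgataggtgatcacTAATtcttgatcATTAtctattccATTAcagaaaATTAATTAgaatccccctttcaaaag
let-413 distal: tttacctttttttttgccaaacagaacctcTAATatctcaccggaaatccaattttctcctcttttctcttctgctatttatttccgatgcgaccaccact

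Matches that overlap were counted separately. The weak intronic summit of hmp-1 held 6 matches to TAAT in these bases, some of them overlapping in the run ATTAATTA. The strong upstream one and the let-413 one held 1 each, and the weaker upstream summit of hmp-1 held 0. The number of matches therefore did not follow the order of the signals among these 4 summits.

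The summit upstream of zoo-1 had the highest signal of all 4780 optimal peaks. The gene, WBGene00013683, lies on the plus strand of chromosome I from 14529529 to 14546870. The summit lay at 14528804, in intergenic sequence 725 bp upstream of the outermost 5′ end, and zoo-1 was the only protein-coding gene in whose window it fell. On the other side the nearest 5′ end was that of exc-4, a chloride intracellular channel gene of the excretory canal, at 10085 bp. The pooled signal, the enrichment value of the authors' peak caller, whose scale differs between lists, was 1404. It was 628 in replicate 1, at rank 2, and 781 in replicate 2, at rank 1. The replicate summits lay 10 and 5 bp from the pooled one, so both replicates placed the site at the same position and at the head of their lists. Its pooled signal was 10.2 times the median of the optimal set and 1.02 times that of the peak ranked 2.

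A second, far weaker zoo-1 peak lay inside the gene. Its summit, at 14539353, fell in a coding exon 9824 bp from the 5′ end and 2354 bp downstream of the 5′ end of the short transcript Y105E8A.26d.1. The pooled signal was 107 at rank 3460, 13.1 times below the upstream peak. Replicate 1 gave it a signal of 35.4 at rank 5465 and replicate 2 a signal of 66.3 at rank 3003, with summits 0 and 5 bp away. Only replicate 2 thus had it within its first 4780 entries. Its window of 201 bp was 58.2% G and C, a value that 1.26% of optimal windows reached or passed, where the median was 41.8%. The relaxed pooled list held 13 entries in the zoo-1 window, and the strongest outside the optimal set, 2504 bp upstream, had a signal of 68.7 at rank 5805.

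**Figure D1:**
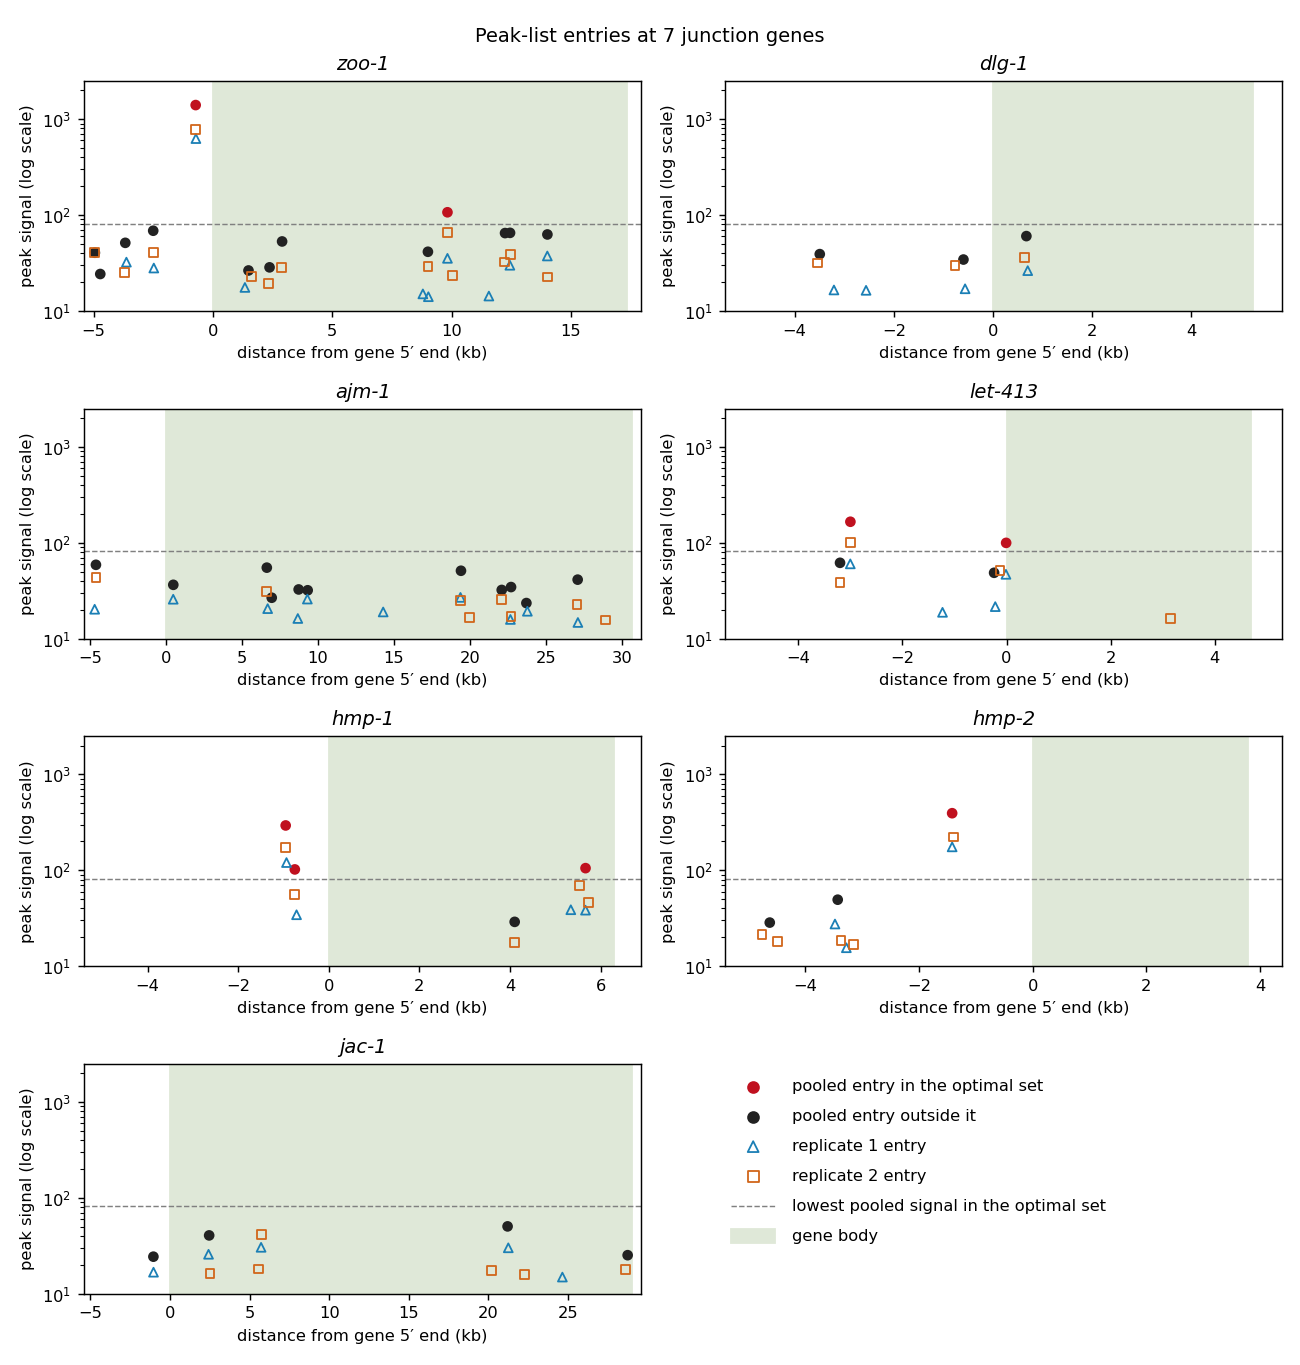
Entries of the pooled, replicate 1 and replicate 2 lists at each of the 7 genes, by distance of the summit from the gene's 5′ end in kb (x axis) and peak signal on a log axis (y axis), with the gene body shaded. The dashed line is the lowest pooled signal in the optimal set, 81.6, and applies to the pooled entries; zoo-1, hmp-1, hmp-2 and let-413 have entries above it, and dlg-1, ajm-1 and jac-1 have none.

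The catenin genes differed from each other. The β-catenin gene hmp-2 (WBGene00001979, I, 14738882 to 14742671, plus strand) had 1 optimal summit, at 14737468, in intergenic sequence 1414 bp upstream. Its pooled signal was 394 at rank 232, with 175 at rank 249 in replicate 1 and 223 at rank 213 in replicate 2. The ranks were close in both replicates, and the replicate summits lay 0 and 28 bp from the pooled one. The summit was nearer to another gene: it lay 234 bp upstream of the 5′ end of K05C4.7 (14737702 to 14738796), which stands on the same strand and ends 85 bp before hmp-2 begins. By nearest 5′ end within 5000 bp it would be counted for K05C4.7 and hmp-2 would have none.

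The α-catenin gene hmp-1 (WBGene00001978, V, 11845871 to 11852166, plus strand) had 3 optimal summits, the most of the 7 genes. The strongest, at 11844920 and 951 bp upstream, had a pooled signal of 293 at rank 509. It had 120 at rank 656 in replicate 1 and 173 at rank 454 in replicate 2, with summits 18 and 2 bp away. A weaker summit lay 202 bp nearer to the gene, at 749 bp upstream, with a pooled signal of 102 at rank 3674. It had 34.4 at rank 5650 in replicate 1 and 56.1 at rank 3728 in replicate 2. The strong summit was above the weak one 3.50-fold in replicate 1, 3.08-fold in replicate 2 and 2.87-fold in the pooled list, so the order was the same in each. The 2 peak regions overlapped, and both summits fell within the annotated non-coding RNA gene R13H4.11 on the other strand, between the 5′ ends of hmp-1 and of nphp-4, a gene of the ciliary transition zone, which lie 2143 bp apart. The stronger was 951 bp from the end of hmp-1 and 1192 bp from that of nphp-4. Another optimal summit within 250 bp was present for 11.9% of the 4780 peaks.

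The third hmp-1 summit, at 11851538, lay in an intron 5667 bp from the 5′ end and 715 bp downstream of the 5′ end of the short transcript R13H4.4c.1. Its pooled signal was 105 at rank 3542. The replicates did not place it alike. In replicate 1 the nearest summit was 1 bp away with a signal of 38.4 at rank 4887. A slightly stronger replicate 1 entry, of 38.8 at rank 4828, lay 5342 bp from the 5′ end. In replicate 2 the nearest summit was 66 bp away with a signal of 45.9 at rank 4782, and a stronger one of 68.9 at rank 2843 lay 133 bp from the pooled summit. A further optimal summit stood 244 bp past the end of the gene, outside the window, with a pooled signal of 101 at rank 3747 and ranks of 3552 and 4329 in the replicates. The p120-catenin gene jac-1 (WBGene00002175, IV, 15997835 to 16026847, minus strand) had no optimal summit in its 34.0 kb window. Its strongest pooled entry, in an intron 21214 bp from the 5′ end, had a signal of 50.4 at rank 8305, which is 0.618 times the lowest signal in the optimal set. The strongest jac-1 entry of each replicate lay elsewhere, about 5.7 kb inside the gene, with a signal of 30.5 at rank 6646 in replicate 1 and 41.5 at rank 5376 in replicate 2. These lay 36 bp apart in an intron, and the pooled list had no summit nearer than 3263 bp to that of replicate 1. Near the pooled position, replicate 1 had an entry almost as strong, of 30.2 at rank 6752, 21259 bp from the 5′ end. The entry of replicate 2 nearest to the pooled position, of 17.6 at rank 16744, lay 20193 bp from the 5′ end.

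The genes of the DLG-1 and AJM-1 complex, both on chromosome X, had no optimal summit. At dlg-1 (WBGene00001006, 5479700 to 5484941, plus strand) the strongest entry of every list lay near the start of the gene, at 675 bp from the 5′ end, in an intron, in the pooled list, at 702 bp in replicate 1 and at 632 bp in replicate 2. The pooled signal was 60.4 at rank 6729, with 26.3 at rank 8291 in replicate 1 and 36.5 at rank 6227 in replicate 2. Each list thus placed its strongest dlg-1 entry at this site, but below the first 4780. At ajm-1 (WBGene00000100, 9082946 to 9113619, plus strand) the pooled list had 11 entries, from 23.5 to 58.8 in signal. The strongest, at rank 6944, lay 4620 bp upstream inside the non-coding RNA gene F47E1.13, and replicate 2 had its strongest ajm-1 entry at the same base with a signal of 43.2 at rank 5150. In replicate 1 the strongest entry, of 26.9 at rank 8024, lay elsewhere, 19375 bp from the 5′ end. Replicate 1 also had a weaker entry 4704 bp upstream, of 20.2 at rank 12586. Near the inner position the pooled list and replicate 2 had entries too, at 19409 and 19399 bp. The relaxed lists hold background by construction, so these entries are not shown to be binding.

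The basolateral gene let-413 (WBGene00002632, V, 7973078 to 7977776, minus strand) had 2 optimal summits. The stronger was distal, at 7980774 and 2998 bp upstream, with a pooled signal of 165 at rank 1805. It had 60.1 at rank 2637 in replicate 1 and 99.8 at rank 1557 in replicate 2, with summits 2 and 0 bp away. It stood between let-413 and the divergent gene F26D11.1, whose 5′ end was nearer, at 771 bp. The other summit, at 7977783, lay 7 bp upstream of the outermost let-413 5′ end, where 4 of its 6 transcripts begin 148 bp further in. Its pooled signal was 99.6 at rank 3798, the lowest of the 8. Replicate 1 had a summit 4 bp away with a signal of 46.8 at rank 3770, and replicate 2 had its nearest 119 bp away with a signal of 51.3 at rank 4196. It was the member summit closest to the threshold, the lowest pooled signal in the optimal set being 81.6, and the zoo-1 entry of 68.7 named above was the closest from outside.

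Across the 8 summits, 6 were upstream and 2 inside a gene. In both replicate lists a summit lay within 100 bp of 7 of them, as it did for 96.2% of the 4780 optimal peaks. A summit within 100 bp among the first 4780 entries of both replicates was found for 4 of the 8, namely the strongest summits of zoo-1, hmp-2, hmp-1 and let-413, against 76.8% of all optimal peaks. The other 4 had pooled signals between 99.6 and 107, below the optimal median of 138. With a limit of 200 bp in place of 100, 5 of the 8 were among the first 4780 entries of both replicates. For the 7 matched summits the log2 ratio of replicate 2 to replicate 1 signal was between 0.26 and 0.91, inside the range from -0.43 to 1.02 that held the central part of all matched peaks (5th to 95th percentile), whose median was 0.29. As each list has its own scale, that median is no difference between replicates.

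**Figure D2:**
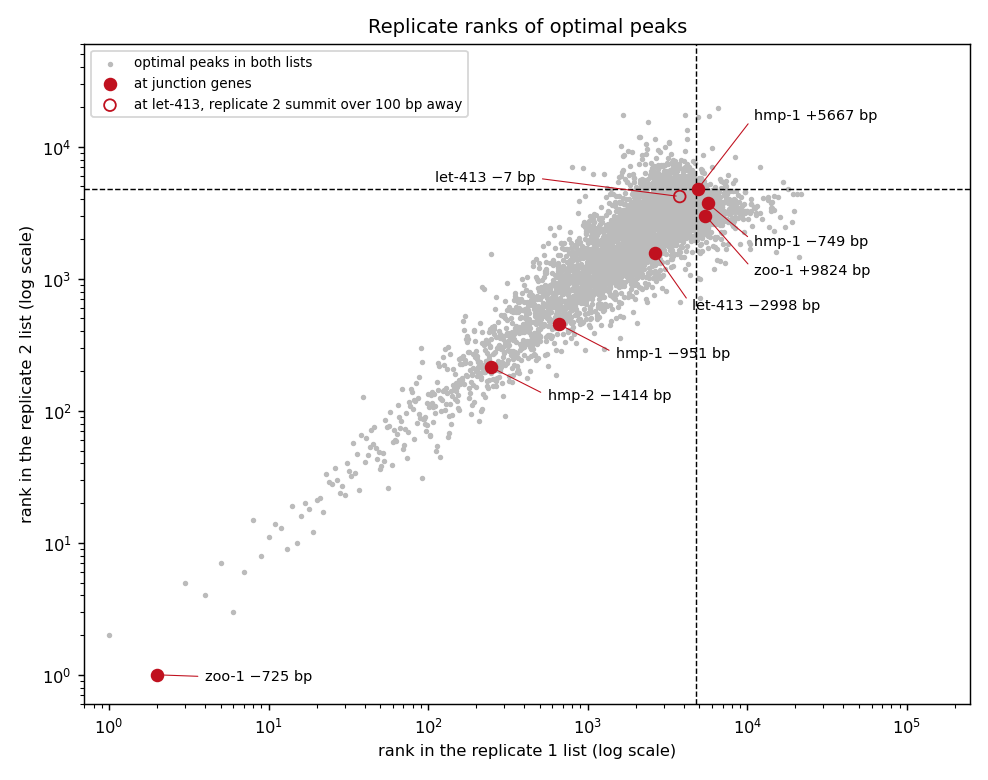
Rank in the replicate 1 list (x axis) against rank in the replicate 2 list (y axis), both log scaled, for the 4596 optimal peaks with a summit within 100 bp in both lists (grey) and for the 8 summits at junction genes (red), labelled by distance upstream (−) or inside (+). Dashed lines stand at rank 4780; 4 of the filled red points lie below both lines, and the hmp-1 and zoo-1 summits at 749, 5667 and 9824 bp lie past at least 1 of them.

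The count of genes was read against the whole annotation, where 5545 of 19973 protein-coding genes made up the 27.8%. With 2000 bp upstream in place of 5000, 4 of the 7 genes had a summit against 19.6% of all, and with the gene body alone 2 (zoo-1 and hmp-1) against 5.44%. Counting each summit only for the nearest 5′ end within 5000 bp, 3 of the 7 had one, against 15.6%. Among the 2390 strongest peaks, 4 of the 7 had one against 16.2%, and taken from a single replicate 4 of the 7 did, against 27.5% without replicate 1 and 27.2% without replicate 2. At least 2 summits, as at zoo-1, hmp-1 and let-413, were present at 7.82% of genes, and at least 3, as at hmp-1, at 2.46%. Longer windows held a summit more often. The share was 31.1% (95% exact Clopper-Pearson interval 29.8 to 32.4%) for windows of 7.5 to 10 kb, the class of hmp-2 and let-413, and 42.5% (40.4 to 44.6%) for 10 to 15 kb, that of hmp-1 and dlg-1. It was 63.9% (58.0 to 69.4%) for 20 to 30 kb, that of zoo-1, and 71.6% (62.4 to 79.5%) above 30 kb. The genes with the longest windows of the 7, ajm-1 and jac-1, were in that last class and had none, although 76.5% of genes with windows at least as long as that of jac-1 had one. That share was 66.4% for windows at least as long as that of zoo-1, and 36.4% for those between hmp-2 and hmp-1 in length. By chromosome, 36% of genes on I, 27.8% on II, 36.8% on III, 26.6% on IV, 17.3% on V and 30.8% on X had a summit. With 7 genes chosen by name, 4 with a summit is not a result about junction genes as a class. These intervals treat genes as independent and cover counting error only.

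**Figure D3:**
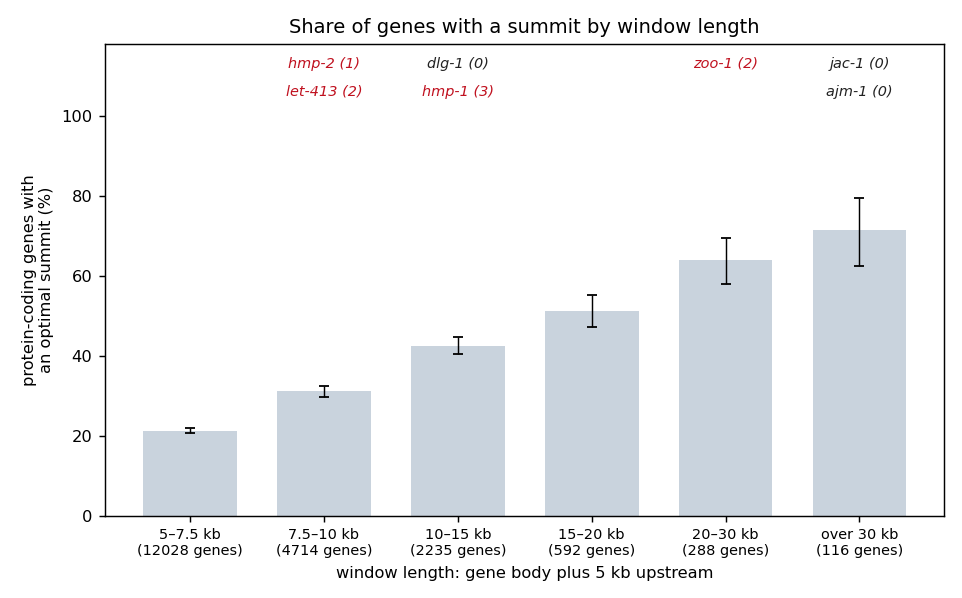
Share of protein-coding genes with an optimal summit (y axis, percent) by length of the window of gene body plus 5 kb upstream (x axis, with the number of genes per class); error bars are 95% exact intervals. The junction genes are written above the class of their window with their number of summits, and ajm-1 and jac-1 stand with 0 above the class with the highest share, 71.6%.

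Sequence features under the 8 summits were compared with all optimal peaks in windows of 201 bp, on both strands. TAAT was present at 6 of 8, against 76.0% of optimal windows. TAATTA, a palindromic homeodomain core that itself contains TAAT, was present at 3, the upstream summit of zoo-1, that of hmp-2 and the intronic one of hmp-1, against 10.9%. The palindrome of TAAT and ATTA spaced by 3 bases was found at 0 of 8 (1.88% of all), and the GA repeat GAGAGAGA at 0 of 8 (11.7%). The GATA site TGATAA was found at the distal let-413 summit alone (7.72% of all), and the E-box CANNTG at 4 of 8 (55.4%). A match is a description and not a binding site, and 8 windows are too few to compare shares.

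The peaks most like the upstream peak of zoo-1 in log2 signal of both replicates, by Euclidean distance over the 2 replicates, were those of C37A2.8 (distance 0.05), egg-5 (0.51), unc-75 (0.56), F28E10.1 (0.61) and ercc-1 (0.66). As the zoo-1 peak was the strongest, these were the peaks that followed it, at pooled ranks 2 to 6. The distance thus describes closeness in signal strength and no other likeness. The peak of C37A2.8 had a signal of 628 at rank 1 in replicate 1 and 754 at rank 2 in replicate 2, so it and zoo-1 held the first 2 places in opposite order. egg-5 encodes a pseudophosphatase of egg activation, unc-75 a neuronal RNA-binding protein and ercc-1 a DNA repair nuclease subunit, as background. The next nearest was lin-2 (0.71), a gene of the basolateral membrane domain that is described with the related genes.

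The other genes of junctions, membrane domains and epidermal attachment were examined as a list of 31. An optimal summit was present at 13 of them, 41.9%, which is above 27.8% of all genes and close to the 42.5% of genes with windows of 10 to 15 kb, where the median window of the list, 14.4 kb, falls. Scaffolds and cytoskeletal linkers had a summit at 6 of 8, membrane domain proteins at 4 of 7, cadherin, claudin-like and other junction membrane proteins at 2 of 8, and hemidesmosome and intermediate filament proteins at 1 of 8. Their median windows, in the same order, were 15.1, 14.6, 6.95 and 21.1 kb. Over all protein-coding genes, the share with a summit in the length class of each median was 51.2%, 42.5%, 21.3% and 63.9%. The list and its classes were matched by the median window only. Windows varied widely within a class, as with hmr-1 (63.9 kb) and clc-1 (6.83 kb) among the junction membrane proteins. A share matched gene by gene was not computed, so whether a class lies above or below it is not shown. The strongest was lin-2, which encodes a CASK homologue that acts with LIN-7 and LIN-10 in the basolateral placing of the EGF receptor, with an intronic summit at a signal of 1004 and rank 7. It was followed by magi-1, a junction scaffold, with an intronic summit at a signal of 528 and rank 94 (250 in replicate 1 and 275 in replicate 2). The classical cadherin gene hmr-1, whose product binds HMP-2 and JAC-1, had 13 summits in a window of 63.9 kb. Its strongest, 44402 bp inside the gene in an intron, had a signal of 422 at rank 180 (184 in replicate 1 and 240 in replicate 2). The α-spectrin gene spc-1 had its strongest summit 782 bp upstream at a signal of 353 and rank 320, and the β-spectrin gene unc-70 had 6 summits, the strongest 1714 bp upstream at a signal of 263 and rank 682. Those of srgp-1 and deb-1, at signals of 83.8 and 85.0, lay just above the threshold. At 5 of the 13 genes the strongest summit was nearer to the 5′ end of another gene, namely at hmr-1 (Y52B11A.11), sax-7 (nsy-7), lin-7 (elof-1), srgp-1 (sec-24.1) and deb-1 (ZC477.4).

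The genes of that list without an optimal summit were vab-9, clc-1, clc-2, clc-3, clc-4, nsy-4, erm-1, sma-1, crb-1, crb-3, eat-20, let-805, mup-4, mua-3, vab-19, ifb-1, ifa-3 and pat-12. Of these 18, 3 had no entry even in the relaxed pooled list. The strongest entry among the rest had a signal of 80.1, just below the lowest signal in the optimal set, 81.6.

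**Figure D4:**
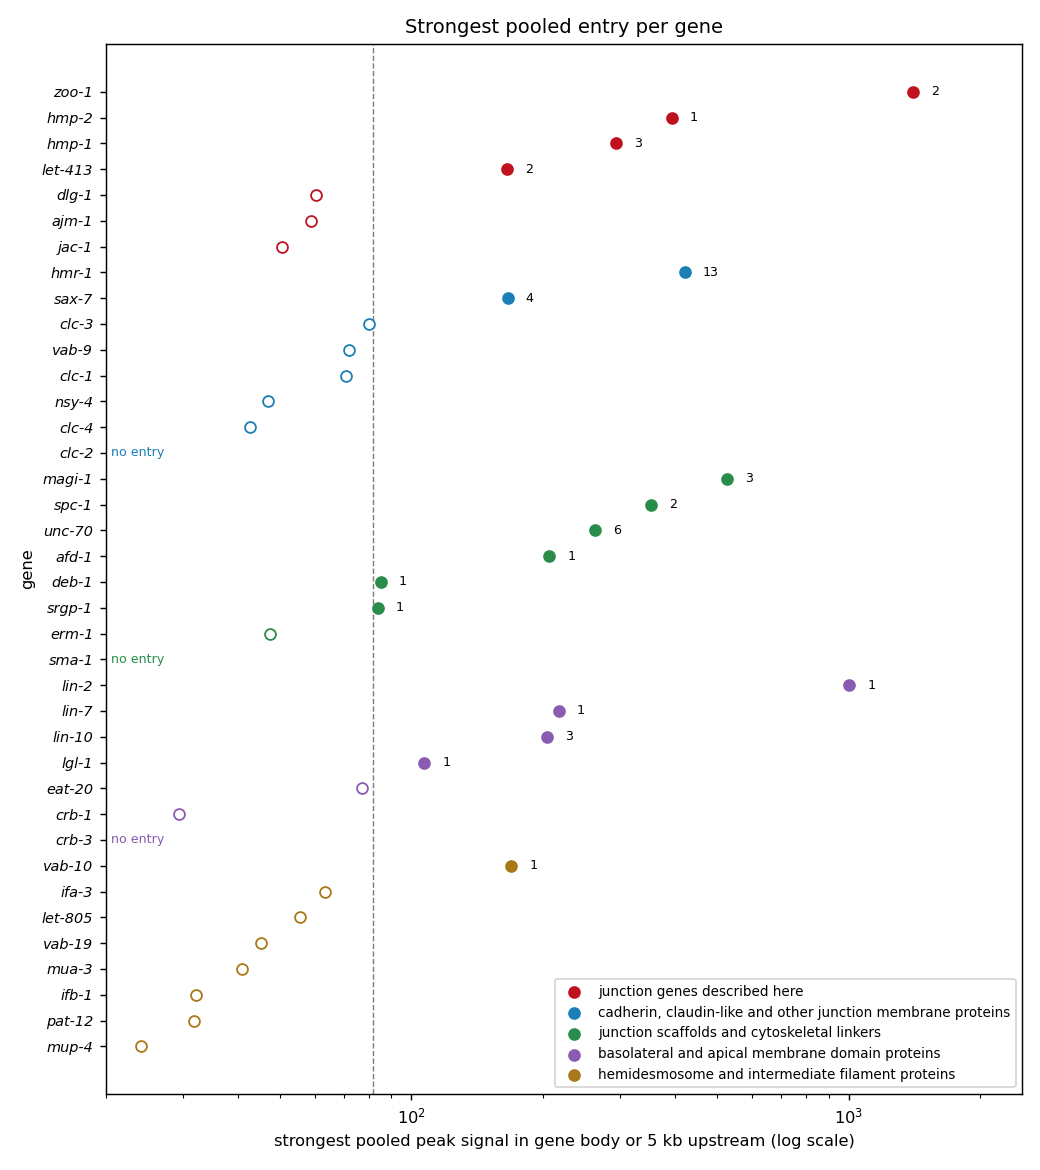
Strongest pooled entry in the gene body or 5 kb upstream (x axis, peak signal, log scale) for the 7 junction genes described here and the 31 related genes (y axis), coloured by class; filled points have an optimal summit and carry the number of such summits, open points have none. The dashed line is the lowest signal in the optimal set, 81.6; the junction genes range from jac-1 at 50.4 to zoo-1 at 1404.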

How the data were processed

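GFP ChIP-seq was carried out on 2 biological replicates of 1 group, per the labels. Per the deposited text files, the authors made relaxed narrowPeak lists of each replicate and of the pooled replicates as input for IDR, with 1 control file per build, and an optimal thresholded set. For the aligner and the peak caller, names and versions: not given in the sources used here. Ranks came from the deposited signal value of each list. The −log10 q value, also deposited, reached a ceiling at 76.9% of optimal peaks and at 7 of the 8 summits described, so it ranked nothing. Read depth is unknown. Lists on ce10 were not used.

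The ce11 summits (start plus offset, printed 1-based) were set against Ensembl release 115 of WBcel235, the same assembly. A summit took the first class that applied, with UTRs and coding exons before introns and protein-coding before other genes. Counting steps were tested on simulated summits. Python 3.11.15, NumPy 2.4.6 and pandas 2.3.3 were used. Members, gene lists and motifs were chosen with earlier results of these data known. By rule, named genes were all 7 members, the 5 genes nearest to zoo-1 in replicate signals and the 5 related genes with the highest signal, besides related genes with no summit, named without values, and genes that a member summit lies in or nearer to. The genes exc-4, nphp-4, sol-2, eva-1, srgp-1, deb-1, sax-7 and lin-7, with the neighbours of related genes, and lin-2 beside zoo-1, were named after their values were seen.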

Additional observations from a re-analysis of the deposited data

How the results depend on the processing

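Of 40 alternative values, 27 stayed within 1.5 times the reported count. With gene bodies alone, 2 of the 7 junction genes had a summit, with 2 summits in all, as did 8 of the 31 related genes and 5.44% of protein-coding genes. By nearest 5′ end within 5000 bp, the junction genes had 4 summits, the related list 8 genes with one, and the share of all genes was 15.6%. In the 2390 strongest peaks, 4 summits were left at the junction genes and 16.2% of all genes had one. With the first 4780 entries of 1 replicate in place of the optimal set, the count of summits at junction genes ranged from 5 to 8, with 5 without replicate 2, where the zoo-1 exon summit and 2 of the 3 hmp-1 summits were lost. The number of junction genes with a summit was 4 without either replicate. TGATAA lay at 0 of 8 summits with 50 bp to each side and at 2 with 200 bp, and CANNTG at 7 with 200 bp. With 200 bp as the limit for a match, 8 summits were matched in both lists, and 5 were among the first 4780 entries of both. No paired analysis was possible because there was 1 group. Read depth is unknown, so a gene without an optimal summit is one at which none passed the threshold in these lists.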

Other observations

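The zoo-1 and hmp-2 summits lay 209 kb apart near the right end of chromosome I, in a stretch with many peaks. From the zoo-1 summit to 350 kb to its right there were 44 optimal summits, 12.6 per 100 kb, where chromosome I as a whole had 5.71 per 100 kb. Of the 20 strongest peaks of the experiment, 3 lay in the stretch, near zoo-1 (rank 1), sol-2 (rank 8) and eva-1 (rank 13), of 7 on chromosome I. The stretch was chosen after these positions were seen, and no test was made.

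The jac-1 entry that both replicates shared and the pooled list lacked was of an uncommon kind. Of 10178 replicate 1 entries within 100 bp of a replicate 2 summit, 308 (3.03%) had no pooled summit within 100 bp. Among the 5726 of them at least as strong as the jac-1 entry, a cut set by that entry, it was 72 (1.26%). The cause was not tested.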
